A study of Mus musculus with 12 samples.

Results

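The genes described here are 10 regulators of mitochondrial and fatty acid metabolism. They are the coactivators Ppargc1a and Ppargc1b, the peroxisome proliferator-activated receptors Ppara and Ppard, the estrogen-related receptors Esrra, Esrrb and Esrrg, the DNA-binding factors Nrf1 and Gabpa, and Tfam, which acts inside the mitochondrion. They were chosen by gene symbol, and all 10 were among the 10187 genes of the expression table.

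The study profiled RNA from the triceps brachii, which extends the elbow of the forelimb, in 12 male mice of the C57/BL6 strain. The 4 groups of 3 mice crossed activity with genotype. They were inactive wild-type (IW), active wild-type (AW), inactive myostatin-reduced (IM) and active myostatin-reduced (AM) mice. Myostatin-reduced mice carried floxed copies of Mstn, which encodes the muscle growth inhibitor myostatin, which Cre recombinase, activated by tamoxifen, deletes. All 12 mice, wild-type mice included, ate chow with 0.025% tamoxifen for 6 weeks in total, starting at 4 months of age. From 6 months of age the active mice lived alone with a running wheel for 12 weeks, so that running and single housing cannot be told apart. The promoter driving Cre was not given in the sources used here, nor was it stated that wild-type mice carried Cre. The muscles came from mice of the 2 genotypes matched for running behavior, and the distance each mouse ran was not analysed here.

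PGC-1 coactivators do not bind DNA themselves. They are recruited by nuclear receptors and other factors, among them the PPARs, the ERRs, NRF1 and GABP, and raise the transcription of genes for fatty acid oxidation, the citric acid cycle and the respiratory chain. PPARs bind DNA as partners of retinoid X receptors and respond to fatty acids, ERRs bind single sites without a known natural hormone, and NRF1 and GABP act on nuclear genes of the respiratory chain and on Tfam. In skeletal muscle this network is known for its response to endurance training and for its higher output in slow, oxidative fibres.

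The estrogen-related receptors were the members whose difference between active and inactive mice passed a test. Esrra and Esrrg were over-expressed in active relative to inactive mice in the limma test across all genes, with log2 changes of 0.36 ± 0.06 and 0.83 ± 0.23 (± SE, 6 active against 6 inactive mice). Esrrb, with a mean too low for that test, had a log2 change of 1.67 in an exact permutation test of this gene alone (p = 0.01, unadjusted). With activity no change passed the test for Ppargc1a, Ppargc1b, Ppara, Ppard, Nrf1, Gabpa or Tfam. Before adjustment the limma p of Ppara was 0.00846, so the bar for Esrrb was the lower one. No member was called between genotypes or for the activity-by-genotype interaction in the limma test.

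A value in this text is a normalized read count per gene, scaled between samples and not divided by gene length. A gene was called when its adjusted p was under 0.05 in limma on log2(value + 1), over the 7247 genes with a mean value of at least 10. Log2 changes are on that scale and understate changes of genes with low values. Of the 10 members, 8 passed this minimum. Ppargc1b, with a mean of 9.999 just under it, and Esrrb, with a mean of 8.66, did not. Each of the latter was tested alone with a two-sided exact permutation test over 400 arrangements of the mice, in which the smallest possible p is 0.005. The table listed only genes in which at least 1 group mean reached 3.0.

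The genes of the table held an estimated 9024431 to 12185351 reads per sample, which leaves out reads outside these genes. Mstn was lower in each of the 6 myostatin-reduced mice, at 8.70 to 21.6, than in any wild-type mouse, at 79.7 to 138. Skeletal muscle markers, summed, were 184887 to 224908 for IW, 156205 to 192567 for AW, 242770 to 251992 for IM and 163167 to 211719 for AM. Myh4, the fast myosin, was the highest of these markers. The mice differed widely in slow-fibre transcripts within groups. Myh7, the slow myosin, was at 376, 1.29 and 63.1 for IW, at 15.6, 447 and 498 for AW, at 1.43, 8.68 and 9.02 for IM and at 164, 393 and 2.73 for AM. These values are taken up beside the results they move with.

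Levels between genes were compared per kilobase of annotated exon of protein-coding transcripts, as a mean over the 12 mice. Esrra was the most abundant member with 52.5 ± 7.92 normalized reads per kilobase (SD), and its lowest mouse was above the highest mouse of any other member. Tfam followed with 12.3 ± 0.686 and Ppard with 10.8 ± 1.25. Gabpa, Ppara and Ppargc1a were next with 8.74 ± 1.15, 8.71 ± 2.64 and 8.64 ± 1.24. They could not be ordered, since Gabpa exceeded Ppara in 6 of 12 mice and Ppara exceeded Ppargc1a in 6 of 12 mice. Esrrg had 6.04 ± 2.71, Ppargc1b 2.68 ± 0.642, Nrf1 2.21 ± 0.235 and Esrrb 1.54 ± 1.13. The place of Esrrb differed between groups, since its AM mean, 2.45, was above that of Nrf1, 2.17. Apart from Esrra and Tfam, the ranges of each pair of neighbors in this order overlapped.

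The sequences before the start sites are shown for the members whose windows held one of the searched motifs. RefSeq start sites gave windows of 250 bases before to 50 bases after the start for 9 members, with 4 windows for Esrrg and 2 each for Esrrb and Nrf1. Motifs were searched on both strands. They were TNAAGGTCA, the extended site of the ERRs, which contains AAGGTCA, its core, GCGCANGCG for NRF1, CCGGAAG for GABP and other ETS factors, and TGACGTCA for CREB. No window of the 9 members held TNAAGGTCA, AAGGTCA or TGACGTCA, which were in 1.28%, 4.72% and 1.79% of the 32851 promoters searched. GCGCANGCG, in 6.25% of all promoters, was in the windows of Esrra and Ppara, and CCGGAAG, in 8.86%, was in those of Tfam and Gabpa. A match describes letters and not a bound site. The 250 bases before the Esrra start, on the minus strand at chr19:6996299-6996548 of mm9, and 30 bases around the match of each other gene are given 5′ to 3′ with the matched letters in capitals.
Esrra: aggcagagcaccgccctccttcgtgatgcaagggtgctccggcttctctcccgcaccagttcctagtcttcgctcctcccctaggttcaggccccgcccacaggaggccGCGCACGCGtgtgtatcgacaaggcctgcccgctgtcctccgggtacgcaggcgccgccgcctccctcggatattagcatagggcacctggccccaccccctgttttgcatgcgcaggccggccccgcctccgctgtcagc
Ppara: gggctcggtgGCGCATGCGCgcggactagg
Tfam: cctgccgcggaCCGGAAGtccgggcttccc
Gabpa: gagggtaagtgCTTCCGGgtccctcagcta
The NRF1 letters began at -141 from the Esrra start. In Ppara, at chr15:85566165-85566194 on the plus strand, they matched on both strands in overlapping frames, at -31 and -30 from the start. This stretch lies inside the gene as GENCODE annotates it on mm9, which begins at 85565413. The GABP letters lay at -47 in Tfam, at chr10:70700821-70700850 on the minus strand, inside the annotated gene, which begins at 70701028 on that strand. In Gabpa, at chr16:84835265-84835294 on the plus strand, they lay at -93 and read on the opposite strand, inside the annotated gene, which begins at 84835170.

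**Figure D1:**
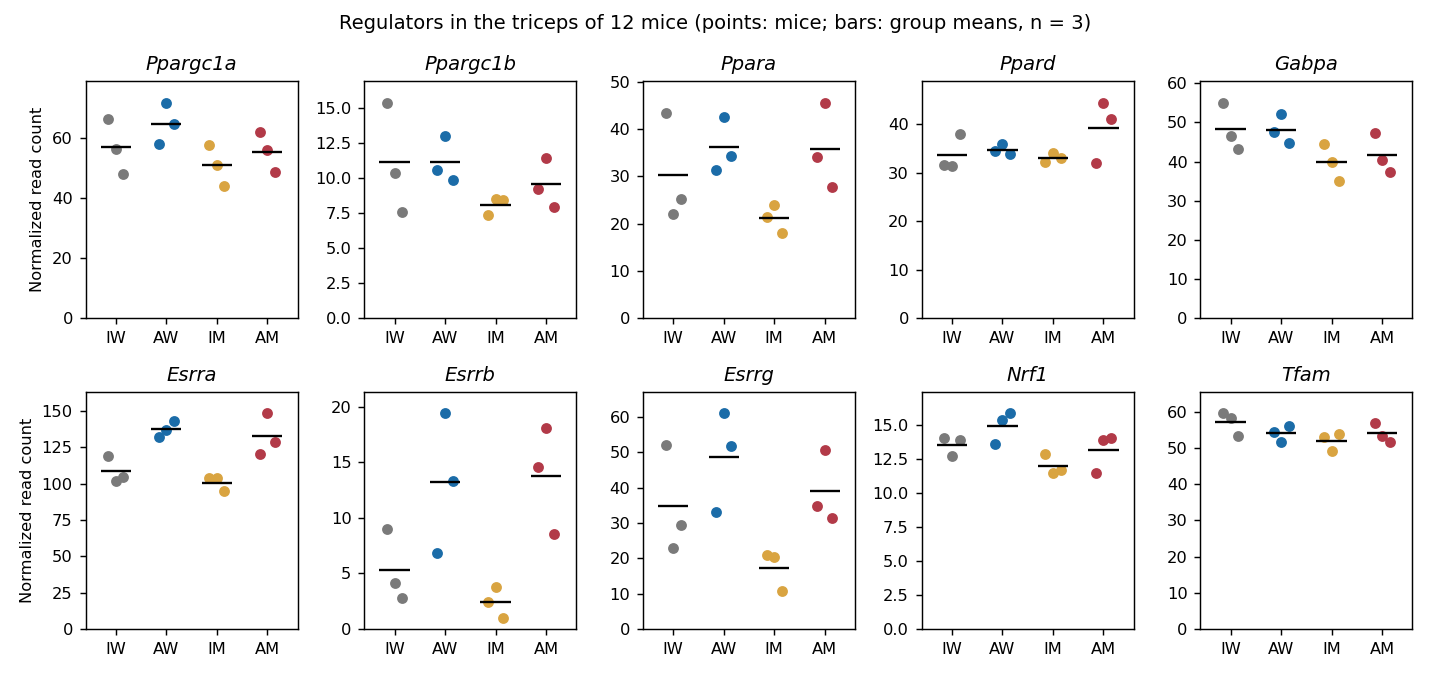
Normalized read count (vertical axis, from 0) of each of the 10 regulators in each mouse, by group (IW, AW, IM, AM), with points for mice and bars for group means of 3 mice. In the Esrra panel all 6 active mice, at 120.1 to 148, sit above all 6 inactive mice, at 94.7 to 119, while the Tfam points of all groups lie between 49.2 and 59.6.

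Ppargc1a encodes PGC-1alpha, the coactivator best known for its induction by exercise. The gene lies on chromosome 5 from 51845488 to 51958964 on the minus strand in mm9. Its values were 66.4, 56.4 and 48.1 for IW, 58.1, 71.9 and 64.6 for AW, 57.7, 51.0 and 44.2 for IM and 61.9, 56.1 and 48.6 for AM. The AW mice were all above the IM mice, every other pair of groups overlapped, and AW had the highest mean, 64.9 ± 6.86 (SD, n = 3). The difference of Ppargc1a with activity was 0.16 on the log2 scale, with a 95% interval of -0.05 to 0.36 and an adjusted p of 0.276. The genotype difference was -0.19, with an interval of -0.39 to 0.02 and an adjusted p of 0.261.

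Ppargc1b, which encodes the related coactivator PGC-1beta, lies on chromosome 18. It was at 15.4, 10.4 and 7.57 for IW, 10.6, 13.02 and 9.88 for AW, 7.38, 8.55 and 8.44 for IM and 9.24, 11.5 and 7.98 for AM. Values came from an estimated 70 to 172 reads per mouse. The AW mice were all above the IM mice, and every other pair of groups overlapped. The activity difference was 0.12 (exact permutation p = 0.45) and the genotype difference -0.29 (exact permutation p = 0.085). Without the third IW mouse, its lowest wild-type value, the genotype difference was -0.40 with an exact permutation p of 0.02, unadjusted.

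Ppara encodes the receptor that drives fatty acid oxidation in liver, heart and muscle, encoded on the plus strand of chromosome 15 between 85565413 and 85633249. It was at 43.5, 22.1 and 25.3 for IW, 31.4, 42.6 and 34.3 for AW, 21.4, 23.9 and 18.1 for IM and 34.1, 45.6 and 27.7 for AM. All AM mice were above all IM mice, while the first IW mouse had a value inside the range of the active mice. The activity change of 0.50 ± 0.16 (SE; interval 0.15 to 0.86) did not pass the test, with an adjusted p of 0.0547. It passed when the first IW mouse, the first AW mouse or the third AM mouse was left out, with adjusted p-values of 0.00751, 0.0424 and 0.0348.

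Ppard encodes the receptor PPARdelta, which controls fatty acid use in skeletal muscle, from chromosome 17 (28369699 to 28438414, plus strand). Its values were among the steadiest of the members, at 31.5, 31.5 and 37.9 for IW, 34.5, 35.9 and 33.8 for AW, 32.3, 34.1 and 33.0 for IM and 31.9, 44.5 and 41.1 for AM. The second and the third AM mice were above all others and the first AM mouse was near the lowest. Activity gave 0.14 (interval -0.03 to 0.30, adjusted p = 0.255), and without the first AM mouse the change was 0.20 with an adjusted p of 0.0364. Ppard was the member of the 8 with a genotype difference above 0, at 0.07 (adjusted p = 0.652).

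Esrra encodes ERRalpha, which works with PGC-1 coactivators on genes of oxidative phosphorylation. The gene occupies chromosome 19 from 6985467 to 6996303 on the minus strand. It was at 119, 102 and 104 for IW, 132, 137 and 143 for AW, 104, 104 and 94.7 for IM and 120.1, 148 and 129 for AM. Every active mouse was above every inactive mouse. Esrra was the one member of the 8 tested in which the active mice exceeded the inactive mice within both genotypes, an arrangement seen in 4.84% of all genes tested. The means were 135 ± 10.1 in active and 105 ± 7.89 in inactive mice (SD, n = 6 each), and the log2 change of 0.36 (interval 0.23 to 0.50) had an adjusted p of 0.0029. It passed the test in each of 22 alternative settings, with changes of 0.30 to 0.40. In bulk muscle, more cells of a type and more RNA per cell cannot be told apart.

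The change of Esrra was of similar size in both genotypes, at 0.34 in wild-type mice (adjusted p = 0.113) and 0.39 in myostatin-reduced mice (adjusted p = 0.0205), and the interaction was 0.05 with an interval of -0.22 to 0.31. Esrra shares 73 of its 2279 exon bases with Trmt112 on the opposite strand, and whether the counting used strand was not stated. Trmt112, a methyltransferase cofactor, had a difference of 0.05 with activity (adjusted p = 0.687). Over the 12 mice, the genes with the pattern most like Esrra were Sdhd, Acadvl and Cyc1, with Pearson correlations of 0.97 each among 7246 genes compared. They encode a subunit of succinate dehydrogenase, an acyl-CoA dehydrogenase and cytochrome c1.

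Esrrg encodes ERRgamma, which is known to be more abundant in slow, oxidative muscle. The gene spans 606095 bases of chromosome 1, from 189432670 to 190038764 on the plus strand. It was at 52.1, 22.8 and 29.4 for IW, 33.2, 61.0 and 51.8 for AW, 20.9, 20.4 and 10.8 for IM and 34.9, 50.8 and 31.4 for AM. All IM mice were below all mice of every other group, while IW, AW and AM overlapped. Esrrg averaged 43.8 ± 12.3 in active and 26.1 ± 14.1 in inactive mice (SD, n = 6 each). The log2 change of 0.83 (interval 0.34 to 1.32) had an adjusted p of 0.0293.

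This call of Esrrg rested on individual mice. It was lost, with adjusted p-values of 0.0606 to 0.0774 and changes of 0.69 to 0.80, when the second or the third IW mouse, the second or the third AW mouse, the third IM mouse or the second AM mouse was left out. The genotype difference of Esrrg was -0.62 (interval -1.11 to -0.13) with an adjusted p of 0.13. The genes with the most similar pattern over the 12 mice were Atp1b1, Khdrbs3 and Fhl1, with correlations of 0.99, 0.98 and 0.98 among 7246 genes, and Fhl1 is also one of the slow-fibre markers. For Ppargc1a these genes were Lpgat1, Atad1 and Qk, with correlations of 0.92 each.

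Esrrb encodes ERRbeta, best known from embryonic stem cells and the inner ear, and is encoded on the plus strand of chromosome 12 between 87702067 and 87862578. Its values were the most variable of the 10, with 19.2 times between the lowest and the highest mouse. They were 8.99, 4.15 and 2.82 for IW, 6.84, 19.4 and 13.3 for AW, 2.42, 3.73 and 1.01 for IM and 14.6, 18.1 and 8.56 for AM. All AM mice were above all IM mice, and the first AW mouse was below the first IW mouse. The lowest values rested on few reads, with an estimated 11 to 41 per mouse in IM against 89 to 235 in AM. The active mean was 13.5 ± 5.02 and the inactive mean 3.85 ± 2.75 (SD, n = 6 each), and the log2 change of 1.67 had an exact permutation p of 0.01. In a limma fit to all 10187 genes without the minimum, the adjusted p was 0.00421, and the permutation p stayed at 0.01 to 0.015 when each mouse was left out in turn. The genotype difference of -0.38 had an exact permutation p of 0.365.

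Nrf1, nuclear respiratory factor 1, on the plus strand of chromosome 6 from 29997988 to 30103458, was at 14.0, 12.7 and 13.9 for IW, 13.6, 15.4 and 15.9 for AW, 12.9, 11.5 and 11.7 for IM and 11.5, 13.9 and 14.0 for AM. The AW mice were all above the IM mice, and every other pair of groups overlapped. Its activity change was 0.12 (interval -0.03 to 0.28, adjusted p = 0.266), and its genotype difference was -0.17 (interval -0.33 to -0.01, adjusted p = 0.192).

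Gabpa, the DNA-binding subunit of GABP, on the plus strand of chromosome 16 from 84835170 to 84864024, was at 55.1, 46.6 and 43.3 for IW, 47.4, 52.1 and 44.7 for AW, 44.5, 39.8 and 35 for IM and 47.4, 40.4 and 37.3 for AM. The lowest 4 values were those of myostatin-reduced mice, and the genotype difference was -0.24 (interval -0.42 to -0.06) with an adjusted p of 0.111. Its activity change was 0.03 (interval -0.15 to 0.21). Gabpa shares 397 of its 5086 exon bases with Atp5j, a subunit gene of ATP synthase on the opposite strand. Atp5j was over-expressed with activity, with a log2 change of 0.25 and an adjusted p of 0.0231.

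Tfam, which packages mitochondrial DNA and starts its transcription, lies on chromosome 10 from 70688212 to 70701028 on the minus strand. It varied least, by 1.21 times between its lowest and highest mouse. Its values were 59.6, 58.4 and 53.3 for IW, 54.5, 51.6 and 56.2 for AW, 52.9, 49.2 and 53.7 for IM and 57.0, 53.3 and 51.7 for AM. Its activity change was -0.01 with an interval of -0.12 to 0.10 (adjusted p = 0.907), and its genotype difference was -0.07 with an interval of -0.17 to 0.04 (adjusted p = 0.451). The intervals for Tfam, Gabpa, Nrf1 and Ppard exclude a change with activity as large as the estimate for Esrra. That for Ppargc1a does so narrowly, with an upper limit of 0.3608 against 0.3645. Of the members with GABP letters near the start, Tfam and Gabpa, neither was called, and of those with NRF1 letters, Esrra was called and Ppara was not.

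**Figure D2:**
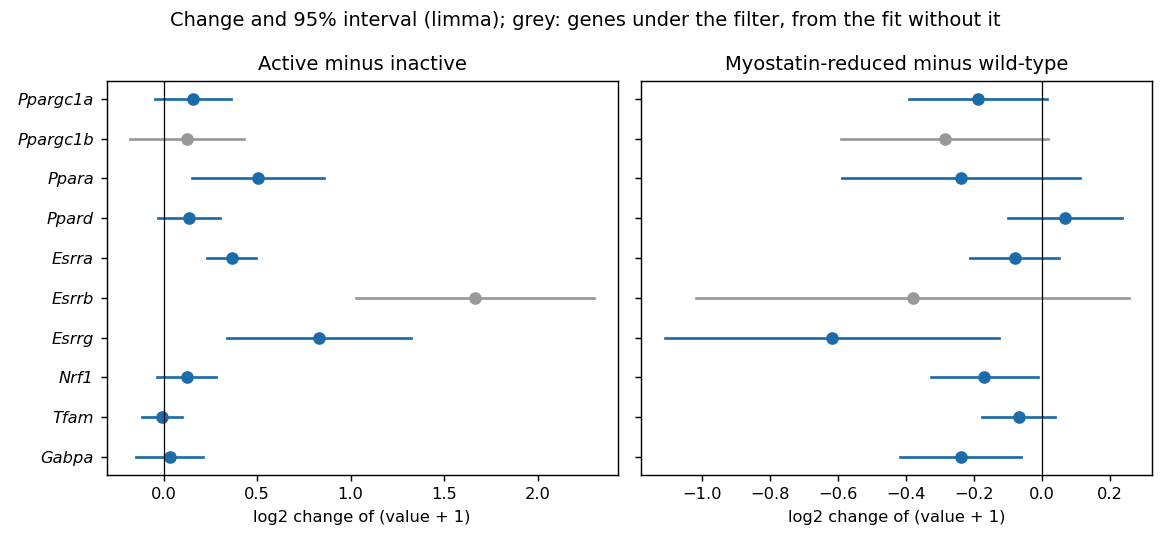
Log2 change of (value + 1) with its 95% interval (horizontal axis) for each regulator, active minus inactive mice on the left and myostatin-reduced minus wild-type mice on the right, 6 mice against 6 in each. Blue marks the 8 members tested in limma and grey the 2 under the minimum, taken from the fit to all genes. With activity the intervals of Ppara, Esrra, Esrrb and Esrrg lie above 0, and with genotype those of Esrrg, Nrf1 and Gabpa lie below 0, although none of the latter passed the adjusted test.

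Counted together, 2 of the 8 tested members, 25%, were called for activity, both over-expressed in active mice. Over all genes tested 14.5% were called, with 7.99% called and over-expressed in active mice. An unadjusted p under 0.05 was reached by 3 of the 8 members and by 30.2% of all genes. The median change of the 8 members was 0.15 against -0.02 for all genes tested. For genotype, 0 of 8 members were called by limma, against 5.78% called over all genes. An unadjusted p under 0.05 was reached by 3 of the 8, Esrrg, Gabpa and Nrf1, and by 22.5% of all genes. Of the 8 members 7 had estimates below 0, as did 51.7% of all genes tested, and their median difference was -0.18 against -0.0049 for all genes.

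Within the wild-type mice (AW minus IW) limma called 0 of 8 members, against 0.0276% of all genes, and 1 member had an unadjusted p under 0.05, against 14.7% of all genes. Within the myostatin-reduced mice (AM minus IM) it called 2 of 8, Esrra with 0.39 and Esrrg with 1.15 (adjusted p = 0.047), against 7.84% of all genes, and 3 members had an unadjusted p under 0.05, against 26.2% of all genes. Neither was called without the first, second or the third IM mouse or the second AM mouse, and Esrrg was not called without the third IW, second AW, the third AW or the third AM mouse. Esrrb differed by 2.15 between AM and IM and by 1.18 between AW and IW in the fit to all genes, with adjusted p-values of 0.0128 and 0.242. The AM mice were all above the IM mice in 3 of the 8 tested members, Ppara, Esrra and Esrrg, and in 14.5% of all genes tested.

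Among inactive mice (IM minus IW) limma called 0 of 8 members, against 2.51% of all genes. An unadjusted p under 0.05 was reached by 2 members, Esrrg with -0.94 and Gabpa with -0.27, and by 17.4% of all genes. The IM mice were all below the IW mice in 1 of the 8, Esrrg, and in 12.7% of all genes. Among active mice (AM minus AW) limma called 0 of 8, against 0.207% of all genes, and 0 had an unadjusted p under 0.05, against 12.3% of all genes. The 4 pairwise contrasts share groups and are not independent of each other.

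The interaction compares the genotype difference of active mice with that of inactive mice. Limma called 0 of 8 members and 0 had an unadjusted p under 0.05. Over all genes it called 0%, with 297 genes at an unadjusted p under 0.05. Esrrg had an interaction of 0.64 with an interval of -0.35 to 1.62 (adjusted p = 0.89), and Ppara one of 0.42 with an interval of -0.29 to 1.12. For Esrrb it was 0.97, with an interval of -0.30 to 2.24, in the fit to all genes. Each of these intervals includes 0.

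Within groups, the slow-fibre transcripts moved by rank with 3 of the 10 members, and the share over all genes was not computed. A slow-fibre score, the mean log2 deviation of 11 slow-fibre markers from their means over all mice, was 2.01, -1.93 and 0.14 for IW, -1.0, 2.35 and 2.47 for AW, -2.23, -1.39 and -1.82 for IM and 1.03, 2.03 and -1.67 for AM. Mice with high and with low scores occurred in IW, AW and AM, while all IM mice were at the low end. The summed slow-fibre markers were 692 to 2721 for IW, 869 to 3228 for AW, 340 to 515 for IM and 863 to 2588 for AM, and 1 of the 11, Fhl1, was called for activity, higher.

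Deviations from the group means were compared with those of the score over the 12 mice in each of the 10 members, with an exact permutation test over 1296 arrangements within groups. Pearson's r was 0.82 for Ppara, 0.77 for Esrrg and 0.75 for Esrrb, with permutation p-values of 0.0216, 0.0123 and 0.0278 and an adjusted p of 0.0926 each. Spearman's rho was 0.77, 0.77 and 0.80, with permutation p-values of 0.0131, 0.0139 and 0.0147 and an adjusted p of 0.0489 each. The mice with more slow-fibre RNA in a group thus tended to have more of these 3 receptors, by rank and not by Pearson's r after adjustment. Leaving out the first AW and the third AM mouse, the 2 mice whose score deviated most from the mean of its own group, gave r of 0.83, 0.73 and 0.60. For Esrra r was 0.60 and rho 0.62 (adjusted permutation p = 0.289 and 0.187), and r was 0.64 without those 2 mice. For the other 6 members r lay between 0.03 and 0.54, and the adjusted permutation p for r was 0.289 or more.

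With the score as a covariate in limma, Esrra kept a change with activity of 0.30 (adjusted p = 0.0153), while that of Esrrg was 0.45 (adjusted p = 0.159) and that of Ppara 0.22 (adjusted p = 0.298). The score also differed between groups, so that in this fit activity and slow-fibre content cannot be told apart.

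**Figure D3:**
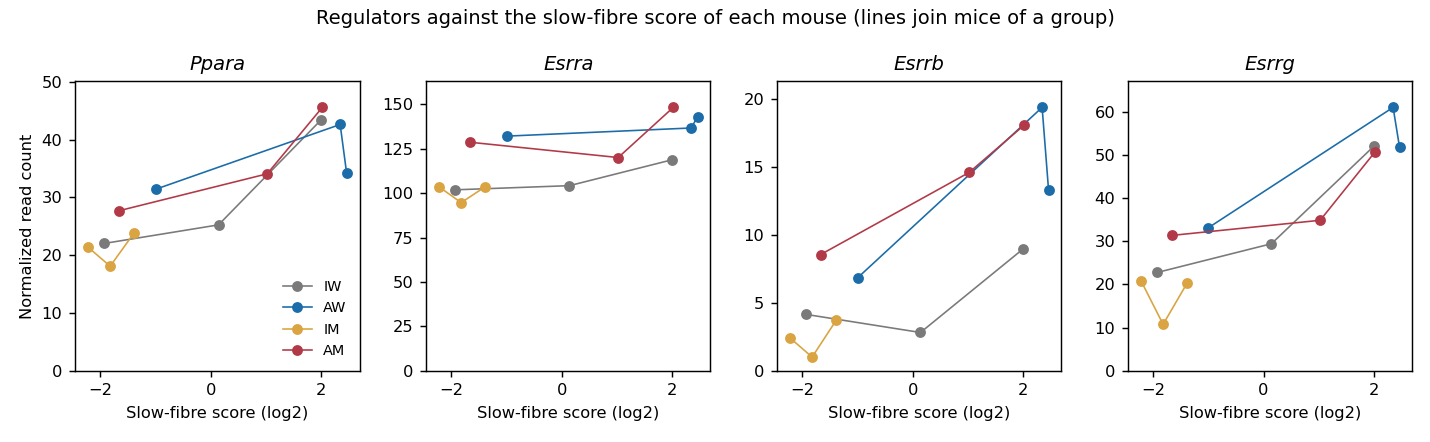
Normalized read count (vertical axis, from 0) of Ppara, Esrra, Esrrb and Esrrg against the slow-fibre score of the same mouse (horizontal axis, mean log2 deviation of 11 markers), with lines joining the 3 mice of a group. In Esrra every active mouse lies above every inactive mouse, at 120.1 to 148 against 94.7 to 119, while in the other 3 panels the first IW mouse lies inside the range of the active mice.

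Markers of other cell types were measured as well. Of 8 endothelial markers 7 were called over-expressed in active mice, and their sum was 307 to 398 for IW, 313 to 532 for AW, 272 to 288 for IM and 364 to 602 for AM. Of 9 fast-fibre markers 4 were called lower with activity and 2 higher in myostatin-reduced mice. White adipocyte markers were represented by 5 of 7 genes with summed values of 105 to 230, 1 of the 2 tested being higher in active mice, and of 4 brown adipocyte markers the table listed Dio2 alone, at 1.01 to 4.77. For 6 fibroblast markers, 1 tested leukocyte marker and 2 tested Schwann cell markers no gene was called, and of 4 erythroid markers the table listed Alas2, at 2.11 to 7.19. The endothelial and fast-fibre markers thus differed with activity, as Esrra and Esrrg did, and their part in the results for those receptors was not tested.

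The genes around the regulators were taken from 5 lists covering 168 genes, of which 160 were in the table and 151 were tested. With activity 59 of the 151 were over-expressed and 15 under-expressed in active mice, 49% called against 14.5% of all genes tested. The lists were chosen with earlier results of these data known, so that this share is not independent evidence. The called genes were unevenly spread, with the higher ones mostly among the targets of PPARs and ERRs and the lower ones entirely among the upstream signals and the receptor partners. With the slow-fibre score as a covariate 47 of the 151 were called, when 406 of all genes were called in place of 1051.

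Of 41 genes of oxidative metabolism that are targets of ERRs and PGC-1, 33 rose in active mice, 0 fell and 8 did not pass, with a median log2 change of 0.34 and all 41 estimates above 0. This was 80.5% called, against 14.5% of all genes tested, and 3226 of the 7247 genes tested had estimates above 0. Mb, the oxygen store myoglobin, averaged 1971 for IW, 3951 for AW, 460.1 for IM and 2746 for AM, a change with activity of 1.82 ± 0.28 (SE, adjusted p = 0.0019). Ckmt2, the mitochondrial creatine kinase, rose by 1.02 and Mdh1, the cytosolic malate dehydrogenase, by 0.85. Subunit genes of each respiratory complex were among those called, with changes of 0.65 for Sdhb, 0.48 for Cyc1, 0.42 for Cox5a, 0.39 for Atp5b and 0.35 for Ndufv2. Cs, citrate synthase, rose by 0.17 and was the smallest called change of the list.

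Of 33 tested PPAR targets of fatty acid use, 20 rose in active mice, 0 fell and 13 did not pass, with a median of 0.36. This was 60.6% called, against 14.5% of all genes tested. Plin5, which coats lipid droplets at mitochondria, changed by 1.17 ± 0.34 (SE, adjusted p = 0.0397), Fabp3, the muscle fatty acid binding protein, by 1.08 ± 0.19 (adjusted p = 0.00429), and Acaa2, the last enzyme of beta oxidation, by 0.91 ± 0.14 (adjusted p = 0.00204). Fabp3 averaged 90.7 for IW, 152 for AW, 49.8 for IM and 135 for AM, so that AM lay near AW and IM was the lowest group. The uptake genes Lpl and Cd36 rose by 0.89 and 0.88. Pdk4, the kinase that closes pyruvate dehydrogenase, Cpt1b, the entry step of mitochondrial fatty acid import, and Ucp3, a mitochondrial carrier, did not pass the test, with 0.10, 0.09 and -0.22.

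Of 20 tested partners of NRF1 and GABP and factors of mitochondrial DNA, 3 rose in active mice, 0 fell and 17 did not pass, with a median of 0.03. The 15% called was close to the 14.5% of all genes. The genes were Mterf2, a mitochondrial termination factor, with 0.43 (adjusted p = 0.0166), Alas1, the first enzyme of heme synthesis, with 0.26 (adjusted p = 0.0106), and Tefm, the mitochondrial elongation factor, with 0.23 (adjusted p = 0.0356). Mterf2 and Tefm, listed in the table under the older symbols Mterfd3 and 1110002N22Rik, are low in this muscle, with group means of 12.7 to 18.6 and 14.7 to 18.6.

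Of 35 tested PGC-1 relatives and upstream signals, 3 rose and 10 fell in active mice and 22 did not pass, with a median of -0.12. This was 37.1% called, against 14.5% of all genes tested. Over all 7247 genes tested, 579 were called higher and 472 lower in active mice. Perm1, listed as 2310042D19Rik, a muscle regulator induced by PGC-1 and ERR, rose by 0.53 (adjusted p = 0.011), Sirt3, the mitochondrial deacetylase, by 0.49 (adjusted p = 0.00401), and Prkag1, a subunit of the energy sensor AMPK, by 0.19. The 10 that fell were Prkab2 and Prkag3 of AMPK, the calmodulin kinase genes Camk2a and Camk2g, the calcineurin genes Ppp3ca, Ppp3cb and Ppp3r1, the p38 pathway genes Mapk14 and Map2k6, and Pprc1, the PGC-1 relative. Prkab2 averaged 477 for IW, 385 for AW, 702 for IM and 456 for AM and fell by 0.48 with activity (adjusted p = 0.00929). Pprc1 fell by 0.25 (adjusted p = 0.0185), unlike Ppargc1a, whose estimate was 0.16. These are RNA levels, and the activity of the kinases was not measured.

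Of 22 tested nuclear receptor partners, coactivators and corepressors, 0 rose, 5 fell and 17 did not pass, with a median of -0.13. This was 22.7% called, against 14.5% of all genes tested, and 472 of the 7247 genes tested were called lower in active mice. Nrip1, a corepressor of oxidative genes, fell by 0.52 (adjusted p = 0.035), the acetyltransferase genes Crebbp and Ep300 fell by 0.43 (adjusted p = 0.00179) and 0.24 (adjusted p = 0.0272), Rxra, a partner of the PPARs, fell by 0.22 and Nr1d2, a clock receptor, fell by 0.21. Crebbp averaged 34.9 for IW, 26.4 for AW, 33.9 for IM and 24.1 for AM.

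**Figure D4:**
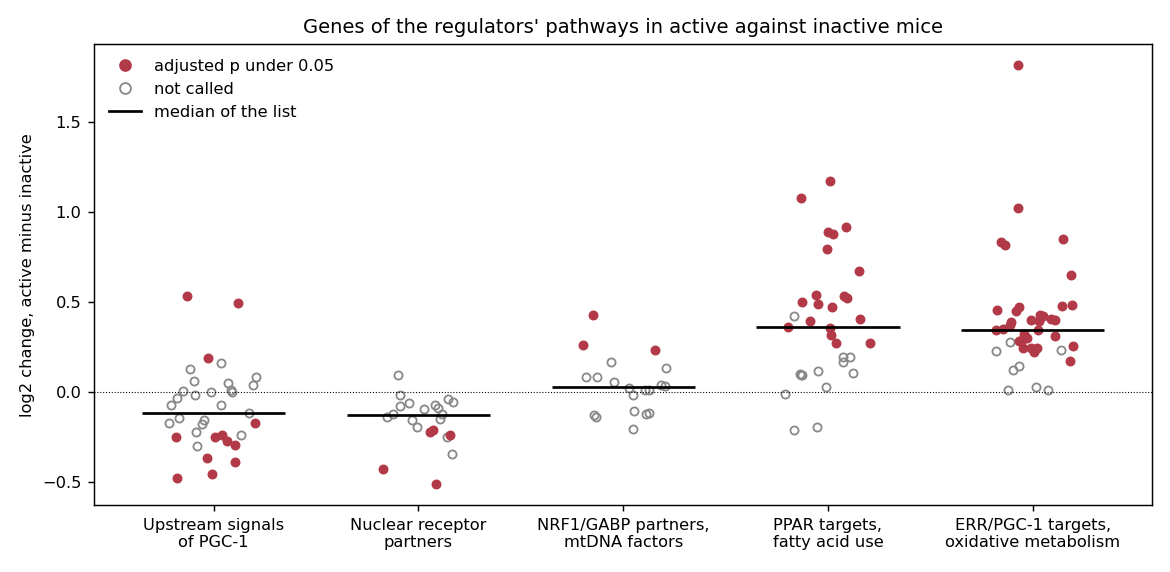
Log2 change, active minus inactive mice (vertical axis), of each tested gene of the 5 lists (horizontal axis), with filled points for genes called at an adjusted p under 0.05, open points for the others and a bar at the median of each list. The medians are -0.12 for upstream signals, -0.13 for receptor partners, 0.03 for NRF1, GABP and mitochondrial DNA factors, 0.36 for PPAR targets and 0.34 for ERR and PGC-1 targets.

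Genotype moved fewer of these genes, 4 higher and 2 lower among the 151 in myostatin-reduced mice, 3.97% against 5.78% of all genes tested. The higher ones were upstream signals, with Prkab2 at 0.41 (adjusted p = 0.0346), Crtc1, a coactivator of CREB, at 0.38 (adjusted p = 0.025), Lpin1, a coactivator and lipid phosphatase, at 0.24 and Prmt1, an arginine methyltransferase, at 0.21. The lower ones were Mb, at -1.26 (adjusted p = 0.0206), and Vegfa, the angiogenic factor, at -0.38 (adjusted p = 0.0382). Of the 41 ERR and PGC-1 targets 40 had estimates below 0, as did 51.7% of all genes tested, with a median of -0.16, and 2 were called. An unadjusted p under 0.05 was reached by 24 of the 41, 58.5%, against 22.5% of all genes tested. In the other 3 lists limma called no gene, with 2 of 22 receptor partners, 1 of 20 NRF1 and GABP partners and 7 of 33 PPAR targets at an unadjusted p under 0.05. The smallest p of these lists were those of Thrb, at -0.25 (adjusted p = 0.171), Gabpb2, at -0.25 (adjusted p = 0.145), and Plin3, at 0.39 (adjusted p = 0.0516). The count of 6 depended on single mice, being 17 without the first AW and 10 without the second AM mouse, 3 without the first IW, second AW, first IM or the third AM mouse, and 2 without the third AW or the third IM mouse. No gene of the 151 was called for the interaction by limma, with 8 at an unadjusted p under 0.05.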

How the data were processed

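Triceps RNA of 12 mice was sequenced as 65-base single-end reads from polyadenylated RNA. Per the labels and the study's methods, the authors mapped reads with CASAVA (version not given in the sources used here) to mm9 and summed reads in RefSeq exons to genes. The deposited signal is this count, which the authors scaled so that the mean without the highest and lowest 5 percentiles was equal in all samples. It keeps gene length, and whether strand was used was not stated, so that reads of overlapping genes may be shared.

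The value of 1 read, 0.0770 to 0.105, was estimated from the steps between low values. A floor of 3 reads is 0.231 to 0.316 and covers counting error only. Whole multiples, within 0.1 of a read, made up 90.1% to 92.8% of values under 5 but 67.5% to 75.4% of those from 20 to 50, so that whole reads were not recovered and no count test was run.

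Groups came from the sample titles, each sample being 1 mouse. Limma 3.58.1 in R 4.3.3 was fitted to log2(value + 1) of all 12 samples with a mean per group and a trend in eBayes. Two-sided p-values were adjusted over the 7247 genes by the method of Benjamini and Hochberg. The fit was tested on simulated data. Members under the minimum were tested in Python 3.11.15 with group labels permuted within the other factor. Gene positions and exon lengths are from GENCODE vM1 on mm9. RefSeq promoter windows (GRCm38.p6) were placed on mm9 by exact, unique match.

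The members and lists were chosen with earlier results of these data known. The named genes are the 10 members, Mstn, the 3 called genes per list with the largest change for activity and 2 for genotype (or the smallest p where none was called), the 3 genes most correlated with each called member and with Ppargc1a, and the highest gene of marker lists. Further list genes were named after their values were seen. Alternatives covered the pseudocount, minimum, scaling, trend, sample weights, a replicate block, the slow-fibre score and leaving out each mouse.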

Additional observations from a re-analysis of the deposited data

How the results depend on the processing

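Of the 20 changes of the members with activity and genotype, the sign turned in 2, both near 0. Tfam with activity turned to 0.00039 under quantile normalization, and lay at -0.034 to 0.0061 (0.0049, 0.0061, 0.0016 and 0.0045 where turned) when single mice were left out. Gabpa with activity turned to -0.027 with the slow-fibre score as a covariate, and lay at -0.015 to 0.080 (-0.0050, -0.011 and -0.015 where turned) when single mice were left out. The cause was not tested. The counts of called members were 1 for activity with the slow-fibre covariate, 1 for activity in wild-type mice with sample weights, and, for activity in myostatin-reduced mice, 1 with a pseudocount of 5, quantile normalization or no trend and 0 with the slow-fibre covariate. Leaving out single mice gave 1 to 3 members for activity, 0 to 3 for activity in myostatin-reduced mice and 2 to 17 list genes for genotype. Ppard was called for activity without the first AM mouse. The list genes called for activity were 47 with the slow-fibre covariate, and those called for genotype 13 with sample weights. Ppara also passed for activity with a minimum of 20 and with sample weights. In all, 393 values of members under an alternative kept their sign and their side of the threshold, 9 gained the call, 7 lost it and 9 turned. Over all genes, 1051 were called for activity, against 1740 with sample weights, 406 with the slow-fibre covariate and 552 to 1485 without single mice, and 419 for genotype, against 180 to 579 without single mice.

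Replicate numbers were shared by the groups but stand for different mice. In 18 pairs of like-numbered samples the correlation of deviations from group means ran from -0.60 to 0.48 and was over 0.1 in 9. All 3 pairs of IM with AM were over 0.1, at 0.17 to 0.32, which was so for no other 2 groups. These values lie inside the spread of the 18 pairs, so they do not show which groups, if any, were paired. With the block over IM and AM alone, chosen after seeing the data, 2 members were called for activity in myostatin-reduced mice, Esrra (adjusted p = 0.0214) and Esrrg (adjusted p = 0.0344), as without it. A fit with the block over all 4 groups called 1 member for genotype in place of 0, Gabpa (adjusted p = 0.0374), and gave Ppara an adjusted p of 0.0494 for activity. Esrrb in IM mice rested on an estimated 11 to 41 reads.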
